A study of Drosophila melanogaster with 10 samples.

Results

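Glutathione S-transferases (GSTs) join glutathione, a small thiol peptide, to reactive electrophiles such as products of lipid peroxidation and many insecticides, which makes these compounds more soluble and less reactive. Insects carry the Omega, Sigma, Theta and Zeta classes that are also found in mammals, and the insect-type Delta and Epsilon classes, whose genes lie in tandem clusters and include known detoxification enzymes. In flies, stress-induced GST transcription is known to involve CncC, the homolog of mammalian Nrf2, and GstD1 is commonly used as its reporter gene. The cytosolic GST genes of Drosophila melanogaster were taken here by their FlyBase symbols, a GST class letter followed by a number. This gave 35 genes of 17747 gene identifiers in the tables, by a rule that uses the symbol alone, and all 35 had a row in every table: 11 Delta, 14 Epsilon, 3 Omega, 1 Sigma, 4 Theta and 2 Zeta genes.

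The series measured ribosome-bound mRNA by translating ribosome affinity purification (TRAP), in which a GFP-tagged ribosomal protein, UAS-GFP::RpL10A, is driven in dopaminergic (DA) neurons by dTH-GAL4 and pulled down from fly heads. PARIS WT flies carried this pair of transgenes and human PARIS (ZNF746), a zinc finger transcriptional repressor studied in Parkinson's disease. PARIS C571A flies carried the pair and human PARIS with the C571A change, which the study describes as transcriptionally inactive. TRAP control flies carried the GFP::RpL10A and dTH-GAL4 transgenes alone, and a single whole brain library of total mRNA from flies labelled wild type served to judge the purification. All flies are labelled w1118 and post natal day 30, whereas the methods give a younger adult age for the TRAP flies, and the protocols name whole heads where the label says whole brain. There were 3 TRAP libraries per group, described as independent biological samples of mixed male and female heads, 1500 heads per PARIS WT library and 500 per PARIS C571A or TRAP control library. Head number therefore cannot be told apart from PARIS WT.

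The 9 TRAP libraries held 8819116 to 50102982 counts and the whole brain library 11619907. Mitochondrially encoded genes took 0.301% to 53.8% of counts in the TRAP libraries. They were under 1% in PARIS WT replicate 2 and PARIS C571A replicate 2, which stood apart from the other 7. Calls that changed without both are given as such. Levels below are counts scaled to a common library size (CPM) with TMM, a factor that lines up the bulk of the genes between libraries. They were scaled within each comparison's own table, so the same library differs slightly between comparisons. The summed CPM of the 4 DA neuron markers ple, Vmat, DAT and Ddc was 404 to 587 in TRAP control against 183 in whole brain. The 5 general neuron markers summed to 1435 to 1662 CPM in TRAP control against 384 CPM in whole brain, and the 8 testis markers to 323 to 358 CPM against 101 CPM, both larger ratios of the means than that of the DA neuron markers. RNA of other head cells was present as well: 5 photoreceptor markers summed to 15074 to 16334 CPM in TRAP control against 15975 CPM in whole brain. In such bulk material, fewer cells of a type and less RNA per cell cannot be told apart.

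The 11 Delta genes lie together on 3R between positions 12364776 and 12385624 (BDGP6, release 6 of the fly genome), a stretch of 20.8 kb with 3 other genes in it. Tandem copies raise the question of whether reads can be assigned to 1 gene. Coding sequences of Delta pairs were 46.9% to 82.6% identical (median 64.7%), and those of Epsilon pairs 46.8% to 74.3%. GstE1 was 46.4% to 60.9% identical to the other 34 members, and its longest identical run with any of them was 21 bases, so it has no near copy in the family. The closest Delta pair was GstD2 and GstD5, which share a run of 52 bases without a difference, at 3R:12372143-12372194 in GstD2 and 3R:12375909-12375960 in GstD5, both on the plus strand. That stretch is shown for these 2 genes and for GstD4, GstD1 and GstD7, read 5′ to 3′ from the coding strand of RefSeq Release 6, because reads inside it fit GstD2 and GstD5 equally. Capitals mark bases that differ from GstD2:
GstD2: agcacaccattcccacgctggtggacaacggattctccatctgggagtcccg
GstD5: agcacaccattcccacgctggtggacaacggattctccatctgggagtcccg
GstD4: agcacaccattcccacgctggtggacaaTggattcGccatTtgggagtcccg
GstD1: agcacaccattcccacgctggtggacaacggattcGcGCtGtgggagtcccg
GstD7: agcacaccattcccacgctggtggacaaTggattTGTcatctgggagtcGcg
GstD4 differed from GstD2 at 3 of the 52 bases, GstD1 at 4 and GstD7 at 5. Values of GstD2 and GstD5 are uncertain to the extent that the counting divided such reads.

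Of the 14 Epsilon genes, GstE1 to GstE10 lie on 2R of the same build between 18396638 and 18409835, within 13.2 kb. GstE1 (FBgn0034335) spans 2R 18398393 to 18399223 on the plus strand. Its span overlaps that of GstE10, on the minus strand, by 127 bases, of which 20 are exonic in both genes, or 2.41% of the GstE1 exons. The library kit does not mark strand, so reads in these 20 bases cannot be assigned, but GstE10 had at most 38 counts in any TRAP library against 789 to 2862 counts of GstE1. Exons also overlap a neighbor on the other strand in GstE9 (imd, 40 bases), GstE12 (CG3894, 33 bases), GstE13 (CG18659, 6 bases), GstO2 (se, 61 bases) and GstT2 (CG12926, 223 bases, 25.1% of its exons).

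The antioxidant response element core bound by CncC and Maf-S, TGACNNNGC, was searched on both strands from 250 bases before to 50 bases after each gene start. It was found in 1 of the 35 members (2.86%), GstE3, and in 1204 of 13945 protein-coding genes (8.63%). Neither GstE1 nor GstD1, the reporter gene of CncC, had a match in this window. Sequence outside the window was not searched, so the search cannot show that a gene lacks the element.

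GstE12, GstD1 and GstE1 held most of the GST mRNA in the TRAP libraries. Divided by exon length, so that genes can be compared, the mean level over the 9 TRAP libraries was 148 CPM per kb for GstE12, 122 CPM per kb for GstD1 and 93.5 CPM per kb for GstE1. Together these made up 59.1% of the summed GST level per kb. GstE9 (34.3), GstE3 (32.7) and GstE6 (22.9 CPM per kb) followed, and the highest members of the other classes were GstT4 (15.6), GstO2 (10.8), GstZ2 (9.62) and GstS1 (8.98 CPM per kb). The order was not the same in each group. Per kb, GstE12 had the highest mean in PARIS WT (165 ± 11.6, close to GstE1 at 153 ± 12.5) and in PARIS C571A (157 ± 15.7). In TRAP control GstD1 averaged 143 ± 34.3 and GstE12 122 ± 16.5 CPM per kb (SD, n = 3), which overlapped. GstE1 was above GstD1 in CPM in all 3 PARIS WT libraries and below it in all 3 libraries of PARIS C571A and of TRAP control. At the low end, GstD6 had no count in any TRAP library, GstD7 a single count in 1 library, and GstD4 and GstD11 at most 13 and 26 counts, and these 4 genes did not pass the filter on low counts in the 3-group fit.

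**Figure D1:**
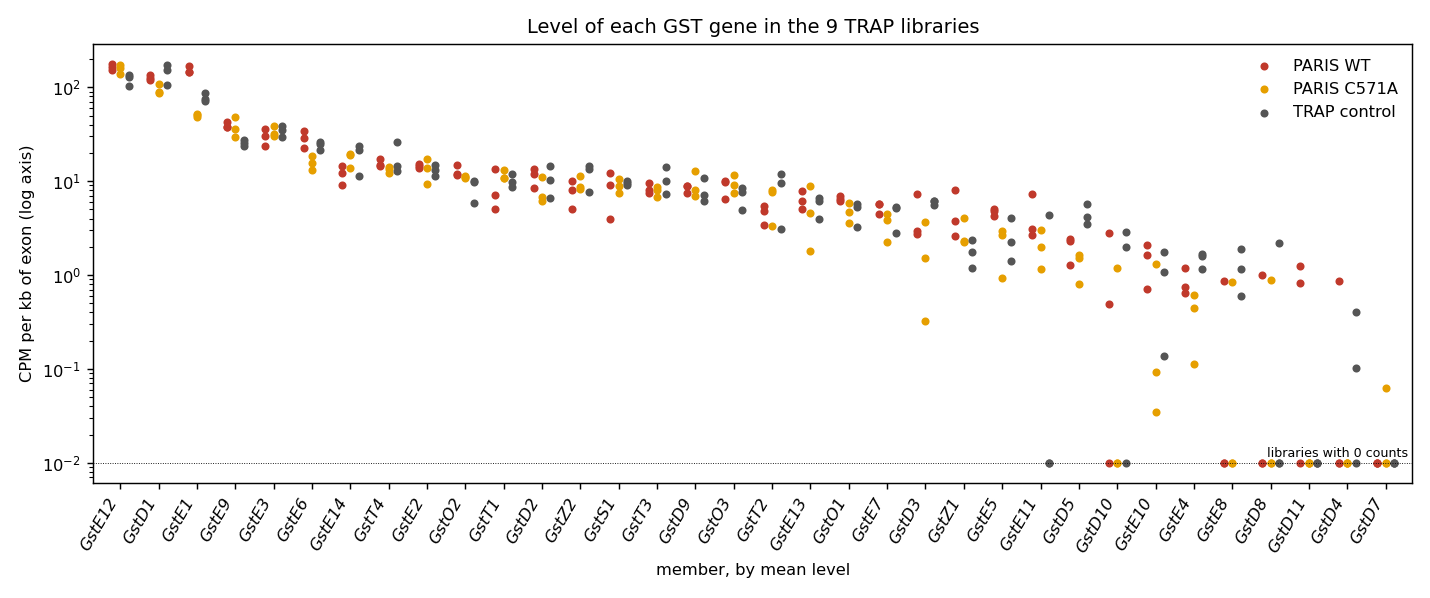
Level of each GST gene in CPM per kb of exon (log axis) in the 3 PARIS WT, 3 PARIS C571A and 3 TRAP control libraries, 1 point per library, ordered by the mean over all 9; points on the dotted line are libraries with 0 counts, and GstD6, with 0 counts throughout, is not drawn. GstE12, GstD1 and GstE1, at 148, 122 and 93.5 CPM per kb, stand above the rest.

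By class, the Epsilon genes summed to 446, 497 and 493 CPM in the PARIS WT libraries, 388, 342 and 382 CPM in the PARIS C571A libraries, and 316, 379 and 345 CPM in the TRAP control libraries. PARIS WT lay above both other groups. Without GstE1 the Epsilon sums were 352 ± 24.5 CPM in PARIS WT, 329 ± 26.8 CPM in PARIS C571A and 282 ± 27.3 CPM in TRAP control (SD, n = 3), and PARIS WT then overlapped PARIS C571A. The Delta sum was 130 ± 5.63 CPM in PARIS WT, 97 ± 7.56 CPM in PARIS C571A and 145 ± 31.3 CPM in TRAP control, of which GstD1 alone gave 108 CPM in PARIS WT, 80.8 CPM in PARIS C571A and 121 CPM in TRAP control. The Omega sum was 36.3 ± 1.8 CPM in PARIS WT, 32 ± 1.92 CPM in PARIS C571A and 25.7 ± 5.24 CPM in TRAP control, and PARIS WT was above both other groups in each library. The Sigma, Theta and Zeta sums overlapped among the 3 groups, and over all 35 genes the sum was 729 ± 38.9 CPM in PARIS WT, 589 ± 23.9 CPM in PARIS C571A and 621 ± 60.9 CPM in TRAP control. These sums were described and not tested.

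**Figure D2:**
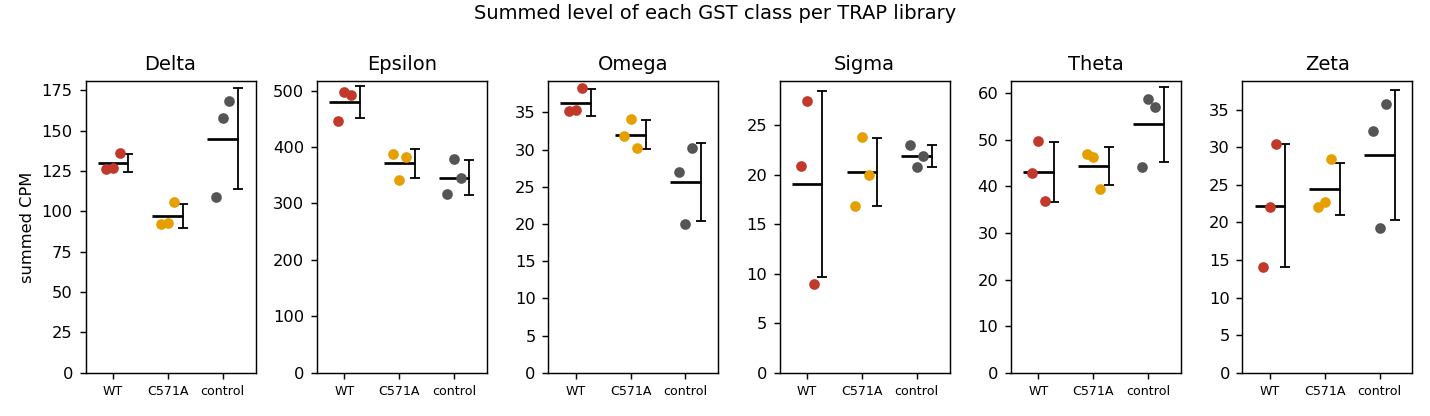
Summed CPM of each GST class per TRAP library (points), with the mean (line) and SD (bar) of the 3 libraries of PARIS WT, PARIS C571A and TRAP control. PARIS WT lies above both other groups for Epsilon (446 to 497 CPM) and Omega (35.2 to 38.3 CPM), and PARIS C571A is lowest for Delta.

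The first question was which GST genes differed among the 3 TRAP groups at all. Of the 31 members tested together, 1 differed, GstE1, against 0.751% of all genes tested (edgeR quasi-likelihood test, adjusted p = 0.0017). At an unadjusted p under 0.05 there were 5 (GstE1, GstE6, GstE12, GstE9 and GstD1), or 16.1% of the members, beside 11.8% of all genes. GstE1 averaged 127 ± 10.3 CPM in PARIS WT, 41.8 ± 1.69 CPM in PARIS C571A and 64.4 ± 6.62 CPM in TRAP control (SD, n = 3), with no overlap among the groups.

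**Figure D3:**
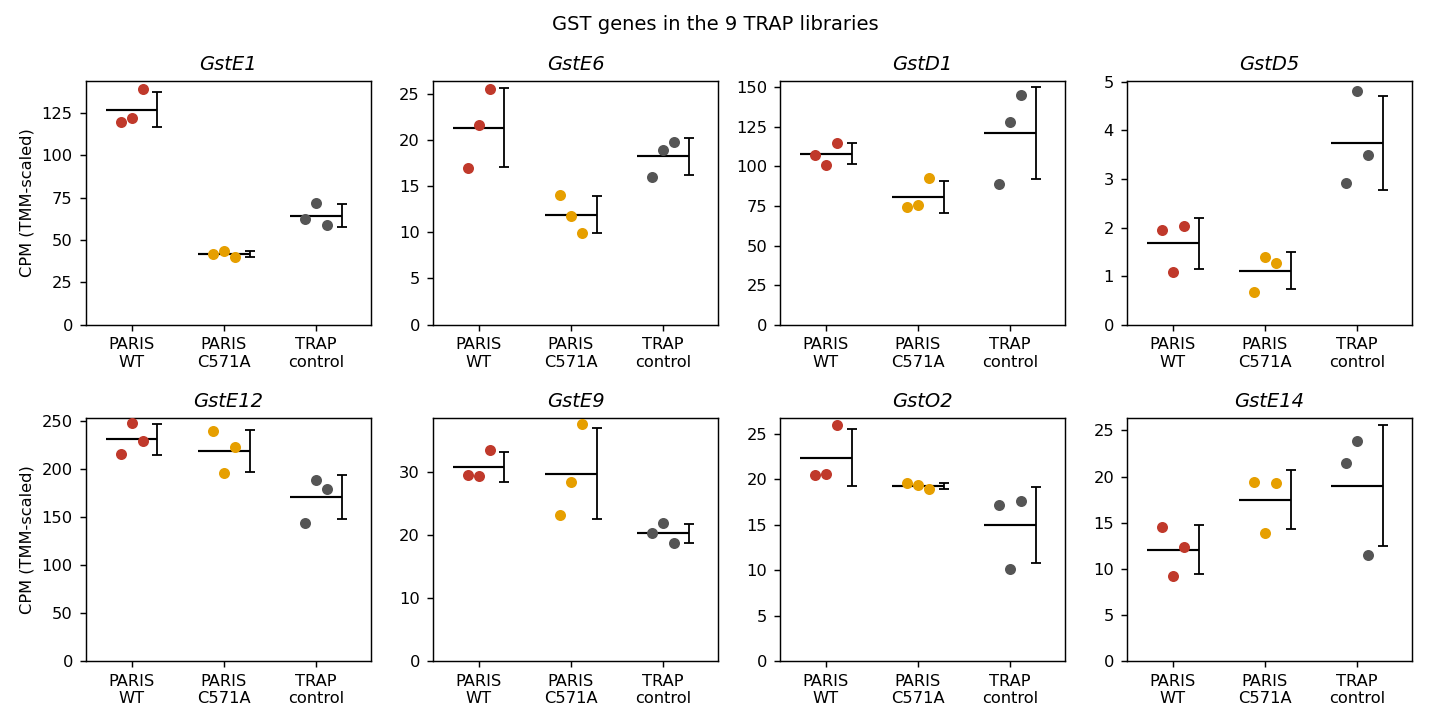
CPM of 8 GST genes in each TRAP library (points) of PARIS WT, PARIS C571A and TRAP control, with the mean (line) and SD (bar) of 3 libraries; each panel has its own axis from 0. GstE1 separates into 3 levels, near 127, 41.8 and 64.4 CPM, and GstO2 into 3 closer ones, while the other 6 genes overlap between at least 2 groups.

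PARIS WT was set against TRAP control to ask what expression of PARIS did to the GST genes. GstE1, an Epsilon enzyme of the detoxification cluster, was the single GST gene that changed. It had 119, 121 and 137 CPM in the PARIS WT libraries, against 62.2, 71.2 and 58.4 CPM in the TRAP control libraries. Every PARIS WT library was above every TRAP control library. GstE1 rose by 0.98 on the log2 scale (SE 0.13), 1.97-fold between the means, with an adjusted p of 0.0421 by edgeR's quasi-likelihood test. Among the 30 members tested, 1 was called higher, against 0.103% of all genes, and 0 lower, against 0.608% of all genes. DESeq2 called 1 member as well, GstE1, and 6.92% of all genes in either direction.

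Below GstE1, 2 members had an unadjusted p under 0.05 and an adjusted p above it. GstE9 had 29.3, 29.2 and 33.2 CPM in PARIS WT, against 20.2, 21.7 and 18.6 CPM in TRAP control (log2 fold change 0.60, SE 0.17, adjusted p = 0.183 in edgeR). GstE12 had 214, 246 and 227 CPM in PARIS WT, against 143, 187 and 178 CPM in TRAP control (log2 fold change 0.44, SE 0.14, adjusted p = 0.255 in edgeR). GstO2, the highest Omega gene, had 20.3, 20.5 and 25.7 CPM in PARIS WT, against 17, 10.1 and 17.5 CPM in TRAP control (log2 fold change 0.58, SE 0.28, adjusted p = 0.545 in edgeR), and its log2 fold change was 0.37 without TRAP control replicate 2. None of these 3 genes overlapped between the groups. GstE1, GstE9 and GstE12 made 3 members higher at an unadjusted p under 0.05, against 4.23% of all genes, and 0 were lower, against 7.4%. Over both directions this was 10% of the members, beside 11.6% of all genes.

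Of the members with lower values in PARIS WT, none was called. GstE14, known as Noppera-bo and needed for ecdysteroid synthesis in larvae, had 14.4, 9.19 and 12.3 CPM in PARIS WT, against 21.3, 23.8 and 11.5 CPM in TRAP control, and the groups overlapped through TRAP control replicate 3 (log2 fold change -0.66, SE 0.35, adjusted p = 0.6 in edgeR). GstD5 had 1.92, 1.07 and 2.02 CPM in PARIS WT, against 2.88, 4.78 and 3.48 CPM in TRAP control, with no overlap and with the doubt over shared reads given above (log2 fold change -1.15, SE 0.64, adjusted p = 0.621 in edgeR). GstZ2, of the class whose human member isomerizes maleylacetoacetate in tyrosine breakdown, had 11.7, 18.5 and 22.9 CPM in PARIS WT, against 30.7, 17.6 and 33.4 CPM in TRAP control (log2 fold change -0.62, SE 0.35, adjusted p = 0.636 in edgeR). The 2 groups overlapped for GstZ2.

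Over the 30 members the median log2 fold change was 0.08, beside -0.02 for all genes, with 16 above 0 and 14 below. In 7 members every PARIS WT library was above every TRAP control library (GstE1, GstE5, GstE9, GstE12, GstO1, GstO2 and GstZ1), and in 1, GstD5, below. Of all genes 9.6% were wholly above and 12.3% wholly below, and over both directions the share was 26.7% of the members beside 21.9% of all genes. Those outside the members described were named after their values were seen. GstE1 lost its call (adjusted p = 0.104 to 0.177) when any 1 of the 6 libraries was left out, while its log2 fold change stayed between 0.91 and 1.07. It was also lost with scaling by total counts alone (adjusted p = 0.398), with scaling by total counts without rRNA, small RNA and mitochondrial genes (0.0689) and with no filter on low counts (0.0559). Adding the replicate number to the fit as a block ended the call too (adjusted p = 0.399 in edgeR).

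PARIS WT was set against PARIS C571A, the form described as transcriptionally inactive. The paper reports the most reads of the human PARIS gene in PARIS WT. Transcriptional activity, transgene level and head number therefore cannot be told apart in this comparison. The same 3 PARIS WT libraries serve here as in the comparison before. GstE1 had 120, 124 and 138 CPM in PARIS WT, against 40.9, 42.6 and 39 CPM in PARIS C571A. The lowest PARIS WT library was above the highest PARIS C571A library by more than the spread within either group, and the means differed 3.12-fold (adjusted p = 0.0102 in edgeR). It was the 1 member called higher of 29 tested, against 0.0106% of all genes, and the only gene of 9460 tested that was called higher, and 0 members were lower, against 0.0423% of all genes.

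GstE6 and GstD1 came next, without passing the test. With GstE1 they made 3 members higher at an unadjusted p under 0.05, against 4.13% of all genes, and 0 were lower, against 4.32%, which is 10.3% of the members over both directions beside 8.46% of all genes. GstE6, another gene of the Epsilon cluster, had 17, 21.9 and 25.4 CPM in PARIS WT, against 13.7, 11.5 and 9.7 CPM in PARIS C571A (log2 fold change 0.88, SE 0.24, adjusted p = 0.333 in edgeR). GstD1, which acts on DDT and on lipid peroxidation products, had 107, 103 and 114 CPM in PARIS WT, against 72.7, 74.2 and 90 CPM in PARIS C571A (log2 fold change 0.45, SE 0.12, adjusted p = 0.333 in edgeR). PARIS WT lay above PARIS C571A in every library for both genes. Without both libraries under 1% mitochondrial counts, the unadjusted p in edgeR was 0.0603 for GstE6 and 0.051 for GstD1. With DESeq2, GstE1 and GstD1 were called, GstD1 at an adjusted p of 0.0457 that was 0.051 without the filters of that tool, where that tool called 3.04% of all genes in either direction.

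The members lowest in PARIS WT relative to PARIS C571A all overlapped between the groups. GstE14 had 14.6, 9.38 and 12.4 CPM in PARIS WT, against 19, 13.6 and 18.8 CPM in PARIS C571A (log2 fold change -0.50, SE 0.26, adjusted p = 0.721 in edgeR). GstT1, a Theta gene, had 7.17, 13.7 and 5.08 CPM in PARIS WT, against 10.5, 12.9 and 10.4 CPM in PARIS C571A (log2 fold change -0.38, SE 0.42, adjusted p = 0.952 in edgeR). GstZ2 had 11.8, 18.9 and 23.1 CPM in PARIS WT, against 19.7, 18.6 and 25.6 CPM in PARIS C571A (log2 fold change -0.25, SE 0.29, adjusted p = 0.961 in edgeR). With 1 library left out, the log2 fold change of GstT1 ran from -0.89 without PARIS WT replicate 2 to -0.13 without PARIS WT replicate 3, and that of GstZ2 from -0.49 without PARIS WT replicate 3 to -0.03 without PARIS WT replicate 1.

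The median log2 fold change over the 29 members was 0.26, beside -0.03 for all genes, and 21 were above 0 and 8 below. With scaling by total counts alone 18 were above and 11 below, and without rRNA, small RNA and mitochondrial genes 17 and 12. In 9 members the PARIS WT libraries were all above the PARIS C571A libraries, against 8.15% of all genes, and 0 were wholly below, against 9.11%. Over both directions this was 31% of the members, beside 17.3% of all genes. The call of GstE1 was lost with scaling by total counts alone (adjusted p = 1), without PARIS C571A replicate 2 (0.0523), PARIS C571A replicate 3 (0.0649) or PARIS WT replicate 3 (0.0601), and without both libraries under 1% mitochondrial counts (0.138), while its log2 fold change was 1.57 or more in each of the 4 fits with libraries left out. The replicate number as a block also ended the call of GstE1 (adjusted p = 0.503 in edgeR). Counts of GstE8, GstE11 and GstE13 differed between the table of this comparison and the 3-group table, so their values carry little weight: GstE8 had 0, 21 and 32 counts in PARIS WT in the pairwise table, against 18, 0 and 0 in the 3-group table, and 18, 0 and 0 in PARIS C571A, against 0, 20 and 0. GstE11 had 54, 0 and 0 counts in PARIS WT in the pairwise table, against 54, 89 and 52, and 47, 0 and 41 in PARIS C571A, against 47, 59 and 41. GstE13 had 99, 107 and 135 counts in PARIS WT in both tables, and 122, 0 and 352 in PARIS C571A in the pairwise table, against 122, 40 and 352.

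PARIS C571A against TRAP control asked what the mutant protein did. The TRAP control libraries are those of the comparison with PARIS WT and the PARIS C571A libraries those just described. None of the 30 members tested was called by edgeR in either direction, against 0.02% of all genes higher and 0.15% lower. GstE1 had 42.2, 44 and 40.5 CPM in PARIS C571A, against 63.6, 72.2 and 59.2 CPM in TRAP control, so that each PARIS C571A library was below each TRAP control library. Its log2 fold change was -0.62 (SE 0.14, adjusted p = 0.199 in edgeR). DESeq2 called 1 member, GstE1, lower at an adjusted p of 0.00641, where it called 3.97% of all genes in either direction.

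At an unadjusted p under 0.05 there were 4 members lower (GstE1, GstD1, GstE6 and GstD5) and 1 higher (GstE12), against 5.32% of all genes lower and 4.52% higher. Over both directions this was 16.7% of the members, beside 9.83% of all genes. GstD1 had 75, 76.5 and 93.4 CPM in PARIS C571A, against 90, 129 and 146 CPM in TRAP control, with overlap (log2 fold change -0.58, SE 0.21, adjusted p = 0.442 in edgeR). GstE6 had 14.1, 11.9 and 10.1 CPM in PARIS C571A, against 16.3, 19.1 and 20 CPM in TRAP control, without overlap (log2 fold change -0.62, SE 0.25, adjusted p = 0.491 in edgeR). GstD5, named after its value was seen, had 0.682, 1.4 and 1.28 CPM in PARIS C571A, against 2.95, 4.85 and 3.53 CPM in TRAP control (log2 fold change -1.74, SE 0.72, adjusted p = 0.499 in edgeR). These genes had their lowest mean of the 3 TRAP groups in PARIS C571A.

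GstE12 and GstE9 lay the other way. GstE12 had 242, 198 and 225 CPM in PARIS C571A, against 146, 189 and 181 CPM in TRAP control (log2 fold change 0.36, SE 0.15, adjusted p = 0.488 in edgeR). GstE9 had 23.5, 28.8 and 38.1 CPM in PARIS C571A, against 20.6, 22 and 18.9 CPM in TRAP control (log2 fold change 0.55, SE 0.23, adjusted p = 0.507 in edgeR). GstO2 had 19.8, 19.6 and 19.1 CPM in PARIS C571A, against 17.4, 10.2 and 17.8 CPM in TRAP control (log2 fold change 0.36, SE 0.28, adjusted p = 0.808 in edgeR). Without TRAP control replicate 2 the log2 fold change of GstO2 was 0.15, and without PARIS C571A replicate 3 that of GstE9 was 0.36. The groups did not overlap for any of the 3 genes, and for GstE12 and GstE9 both PARIS groups were above TRAP control, which GstE1 was not.

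Across the 30 members the median log2 fold change was -0.28, beside 0.01 for all genes, with 9 above 0 and 21 below. The split was 13 and 17 with scaling by total counts alone, and 11 and 19 without rRNA, small RNA and mitochondrial genes. The groups did not overlap in 3 members with higher and 5 with lower values in PARIS C571A, against 9.96% of all genes higher and 10.6% lower. Over both directions this was 26.7% of the members, beside 20.6% of all genes.

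**Figure D4:**
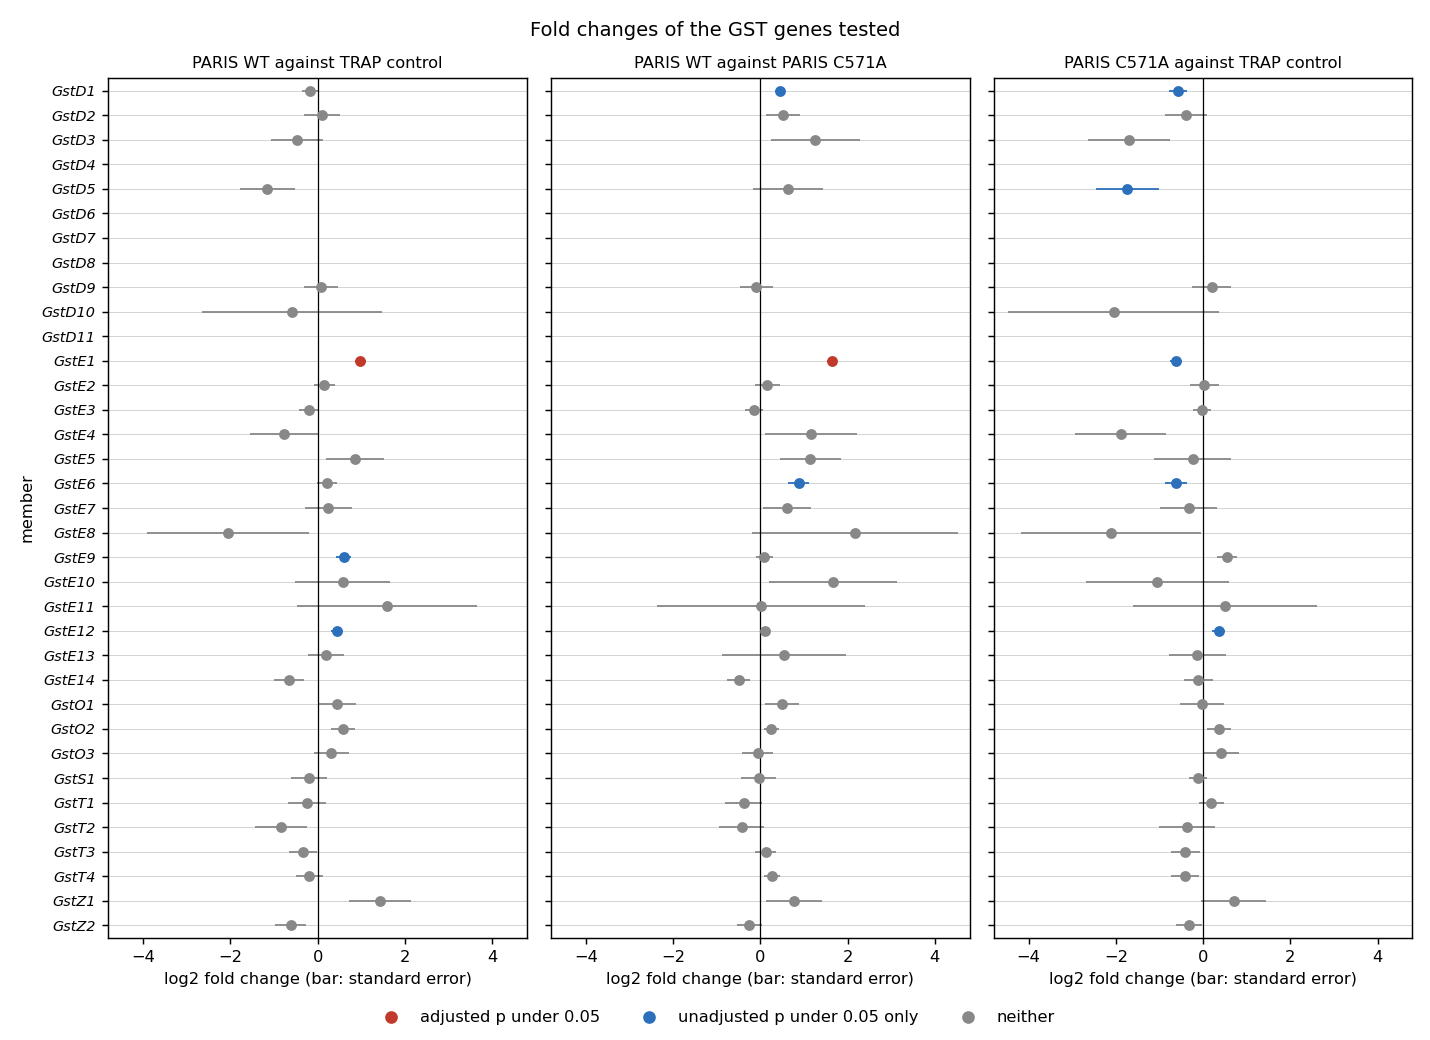
Log2 fold change (point) and standard error (bar) of each GST gene tested in PARIS WT against TRAP control, PARIS WT against PARIS C571A and PARIS C571A against TRAP control; red points have an adjusted p under 0.05, blue points an unadjusted p under 0.05 only, and rows without a point were not tested. GstE1 is red at 0.98 and 1.64 in the comparisons of PARIS WT and blue at -0.62 in PARIS C571A against TRAP control.

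Members known from work on neurons or muscle were not called. GstS1, which acts on 4-hydroxynonenal and is known in flies as a genetic modifier of parkin phenotypes, had 20.9, 27.5 and 8.93 CPM in PARIS WT, 16.9, 23.8 and 20 CPM in PARIS C571A, and 23, 20.8 and 21.9 CPM in TRAP control. PARIS WT replicate 3 was the lowest of the 9 and replicate 2 the highest. GstO1, another known modifier of parkin phenotypes in flies, averaged 6.2 ± 0.403 CPM in PARIS WT, 4.49 ± 1.07 CPM in PARIS C571A and 4.56 ± 1.27 CPM in TRAP control (SD, n = 3), and every PARIS WT library was above every library of both other groups. GstT4, the highest Theta gene, had 18.3, 21.2 and 17.6 CPM in PARIS WT, 17.4, 15 and 16.6 CPM in PARIS C571A, and 17.8, 31.7 and 15.5 CPM in TRAP control. The adjusted p of each of these genes in the 3-group fit was at least 0.871 (edgeR).

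Genes that make or use glutathione but carry other symbols were read from a list of 20. In PARIS WT against TRAP control 18 were tested, edgeR called 0 higher and 1 lower, and their median log2 fold change was 0.06, beside -0.02 for all genes. At an unadjusted p under 0.05 there were 2, or 11.1%, beside 11.6% of all genes. The gene called was Grx1t, a glutaredoxin, with 0.587, 0.919 and 0.528 CPM in PARIS WT, against 7.93, 9.76 and 9.25 CPM in TRAP control (log2 fold change -3.72, SE 0.50, adjusted p = 0.0426 in edgeR). The call was lost without any 1 of the 6 libraries (adjusted p = 0.082 to 0.188), with scaling by total counts alone (0.117) and with no filter (0.0666). It was also lost with the replicate number as a block (0.478), while the log2 fold change lay between -3.98 and -3.56. DESeq2 called Grx1t and eEF1gamma. The summed CPM of 8 testis markers, none at 0 in all libraries of a group, was 11.4 to 14.4 in PARIS WT, 69.4 to 97.9 in PARIS C571A and 264 to 293 in TRAP control, and Grx1t lay in the same order, with 3.14 ± 0.47 CPM in PARIS C571A (SD, n = 3). Their part in the fall of Grx1t was not tested.

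Both subunits of the rate-limiting enzyme of glutathione synthesis, Gclc and Gclm, were close between PARIS WT and TRAP control. Gclc averaged 49.5 ± 2.89 CPM in PARIS WT and 50.8 ± 5.5 CPM in TRAP control (SD, n = 3 each). Gclm averaged 47.5 ± 11.2 CPM in PARIS WT and 55.4 ± 15.4 CPM in TRAP control (SD, n = 3 each). Gclm had 63.1, 0 and 48.3 CPM in the PARIS C571A libraries and was at 0 in whole brain, so its values are uncertain. eEF1gamma, a translation elongation factor subunit with a GST-like domain, averaged 684 ± 35.3 CPM in PARIS WT and 533 ± 30.9 CPM in TRAP control, with no overlap (log2 fold change 0.36, SE 0.10, adjusted p = 0.177 in edgeR and 0.00426 in DESeq2). In PARIS WT against PARIS C571A none of 17 listed genes was called by edgeR, with 1 higher and 1 lower at an unadjusted p under 0.05, eEF1gamma and Grx1t, which is 11.8% beside 8.46% of all genes. In PARIS C571A against TRAP control none of 18 was called, with 2 lower at that level, Grx1t and Mgstl, a microsomal GST, which is 11.1% beside 9.83% of all genes. DESeq2 called eEF1gamma higher in PARIS WT against PARIS C571A and Grx1t lower in PARIS C571A against TRAP control, and no other listed gene in these 2 comparisons.

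The 7 listed regulators of detoxification genes, cnc, Keap1, maf-S, Hr96, ss, tgo and foxo, were tested in all 3 comparisons. None had an adjusted or an unadjusted p under 0.05 in edgeR in any of them. That unadjusted level was reached by 11.6% of all genes in PARIS WT against TRAP control. It was reached by 8.46% in PARIS WT against PARIS C571A and by 9.83% in PARIS C571A against TRAP control. The SE of the log2 fold change in PARIS WT against TRAP control was 2.46 for tgo, 0.68 for ss and 0.62 for Keap1. Only large changes of these genes could have been seen. The level of cnc, which encodes CncC, was 131 ± 21.5 CPM in PARIS WT and 128 ± 3.54 CPM in TRAP control (SD, n = 3 each), and that of Keap1, its cytoplasmic inhibitor, 12.2 ± 8.45 CPM in PARIS WT and 11.7 ± 4.79 CPM in TRAP control.

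GST genes are strongly expressed in gut, fat body and other tissues of the head and body, so markers of other cells were read beside GstE1. GstE1 was highest in PARIS WT and lowest in PARIS C571A. The 4 markers of antennal support cells summed to 67.8 to 76.2 CPM in PARIS WT, 49.9 to 62.3 CPM in PARIS C571A and 45.3 to 62.9 CPM in TRAP control, so PARIS WT was above both. The part of these cells in the GstE1 result was not tested, and Obp83b, a defining marker, was at 0 in PARIS WT. Malpighian tubule markers (4 genes, Uro at 0 in each group) had mean sums in the order of GstE1, with overlap. They summed to 15.6 to 29.9 CPM in PARIS WT (mean 21.3), 17.5 to 20.9 CPM in PARIS C571A (18.8) and 9.91 to 37.9 CPM in TRAP control (19.4). Their part was not tested. Among the 8 gut markers, LManVI and epsilonTry were at 0 in PARIS WT, betaTry in PARIS C571A, and LManVI and betaTry in TRAP control. The gut markers summed to 5.32 to 15.4 CPM in PARIS WT, 17.3 to 19.3 CPM in PARIS C571A and 65.6 to 86.5 CPM in TRAP control. They were lowest in PARIS WT. The oenocyte marker Cyp4g1 was likewise lowest in PARIS WT, at 4.56 to 7.1 CPM, against 16.3 to 18.1 CPM in PARIS C571A and 65.1 to 75.6 CPM in TRAP control. Fat body markers (8 genes, Lsp2 at 0 in both PARIS groups) summed to 14602 to 15248 CPM in PARIS WT. They summed to 15053 to 16491 CPM in PARIS C571A and 9994 to 16015 CPM in TRAP control, with overlap among the groups. The part of gut, oenocytes and fat body in the GstE1 result was not tested. Glial markers (8 genes) summed to 847 to 978 CPM in PARIS WT, 994 to 1126 CPM in PARIS C571A and 725 to 781 CPM in TRAP control. Both PARIS groups were above TRAP control, as for GstE9 and GstE12, but PARIS C571A was wholly above PARIS WT, unlike in those genes. The 5 muscle markers were also above TRAP control in both PARIS groups. They summed to 291 to 366 CPM in PARIS WT (TpnC4 at 0), 327 to 431 CPM in PARIS C571A and 244 to 277 CPM in TRAP control (Act88F at 0). The part of glia and muscle in the GstE9 and GstE12 values was not tested. The DA neuron sum overlapped among the groups, at 335 to 460 CPM in PARIS WT, 346 to 456 CPM in PARIS C571A and 331 to 479 CPM in TRAP control.

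TRAP control was set against the whole brain library to ask which GST mRNAs the purification enriched. With 1 whole brain library there is no test, and ratios have an SD over the 3 TRAP control libraries only. The family as a whole lay slightly below whole brain, as did most genes. The median log2 ratio over the 35 members was -0.56 (SD over TRAP control replicates 0.13), beside -0.44 for the 14480 genes with counts. In every TRAP control library 2 members were above a log2 ratio of 1, against 10.8% of all genes, and 8 were below -1, against 20.7%. The 8 include GstD6, GstD7 and GstD11, which had 0 counts in every TRAP control library. Their ratios rest on the prior count, and their bounds, given below, fall short of 2-fold. Summed over the 35 genes, TRAP control held 758 ± 71.6 CPM (SD, n = 3) and whole brain 1006 CPM.

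The lowest ratio among abundant members was that of GstE9, with 25, 26.7 and 22.8 CPM in the TRAP control libraries, against 185 CPM in whole brain (95% exact Poisson interval 179 to 191, counting error only), a log2 ratio of -2.89 ± 0.11. GstS1 had 28.3, 25.3 and 26.6 CPM in TRAP control, against 76.8 CPM in whole brain (73.1 to 80.7), a log2 ratio of -1.52 ± 0.08. Muscle markers, 5 genes, summed to 298 to 340 CPM in TRAP control, with Act88F at 0, and to 1888 CPM in whole brain, and GstS1 is known to be abundant in flight muscle. The part of muscle RNA in its ratio was not tested. The other members below -1 throughout were GstO3, GstZ1 and GstD3, and GstD6, GstD7 and GstD11, which had 0 counts in every TRAP control library and 8, 8 and 9 counts in whole brain. Against a floor of 3 counts per TRAP control library these were at least 1.41-fold, 1.41-fold and 1.59-fold lower in TRAP control, and with them at these bounds the family median was -0.50.

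On the other side, GstE14 had 26.4, 29.2 and 14 CPM in TRAP control, against 7.19 CPM in whole brain (6.08 to 8.43), a log2 ratio of 1.61 ± 0.57 that fell just short of 1 in replicate 3 (0.96). GstE4 (2.37 ± 0.28) and GstD5 (1.38 ± 0.36) were above 1 throughout, on 5 and 35 whole brain counts. GstE12 had 177, 230 and 218 CPM in TRAP control, against 124 CPM in whole brain (119 to 128), and was above in all 3. GstE1 had 76.9, 87.5 and 71.4 CPM in TRAP control, against 106 CPM in whole brain (102 to 110), and was below in all 3, whereas GstD1, with 109, 156 and 177 CPM in TRAP control, lay on both sides of the 166 CPM in whole brain (161 to 172).

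**Figure D5:**
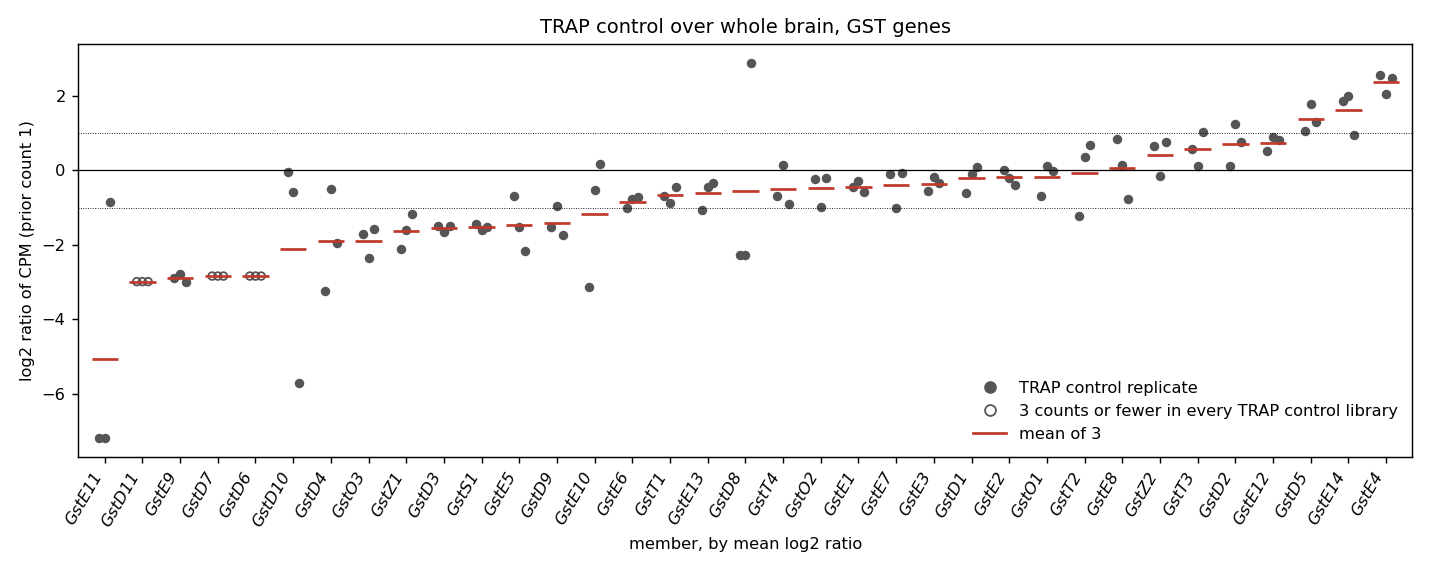
Log2 ratio of CPM (prior count 1) of each TRAP control library over the single whole brain library for the 35 GST genes, ordered by the mean of 3 (red line); dotted lines mark 1 and -1, and open points are genes with 0 counts in every TRAP control library. GstE11, with 0 counts in TRAP control replicates 1 and 2, is lowest (-5.08). GstE9 (-2.89) and GstS1 (-1.52) sit low, and GstE14 (1.61) and GstE4 (2.37) high. In every TRAP control library 20 members lie below 0, beside 40.8% of all genes, and 6 above 0, beside 22.6%.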

How the data were processed

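The libraries were made with the TruSeq RNA v2 kit, which does not mark strand. Per the labels and methods the authors aligned reads with HISAT2 (2.1.0), assembled transcripts with StringTie (2.0), which corrects for reads mapping to several places, and converted the result to estimated counts per FlyBase gene, deposited unscaled and as whole numbers in 5 tables: 1 of all 3 TRAP groups, 3 pairwise and 1 of TRAP control with whole brain. The counts of a library can differ between tables. Entries that named no gene (69 to 87 per table, at most 0.0209% of a library) were left out. Annotation was by FlyBase identifier, for 17650 of 17747 genes; sequences came from RefSeq Release 6, in which all 35 members had the same start and end.

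Counts were tested in R 4.3.3 with edgeR 4.0.16 (quasi-likelihood test, TMM, minimum count 10 and minimum total count 15), in the table of the groups compared and with no covariate, and p-values were adjusted by the Benjamini-Hochberg method over all genes tested, with a threshold of 0.05. DESeq2 1.42.0, other scalings and filters, a replicate block, all groups in 1 fit and leaving out each library were alternatives. The code was tested on simulated counts. Replicates differed by far more than counting error. Ratios to whole brain were log2 ratios of CPM with a prior count of 1. Members, gene lists and tests were chosen with earlier results of these data known. Values per library are given for members called by edgeR or DESeq2, up to 3 members per direction with the smallest p in each comparison, the highest member of each class, and members whose counts differed between tables.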

Additional observations from a re-analysis of the deposited data

How the results depend on the processing

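None of the 22 log2 fold changes recomputed (those of the named members, GstO2 and GstD5 in 1 further comparison each, and Grx1t and eEF1gamma in PARIS WT against TRAP control) turned its direction in a setting run, and GstE1 was called among the 3 TRAP groups in every setting but total counts only. For PARIS WT against TRAP control the count of GST genes called (1) was 0 with total counts only, with total counts without rRNA, small RNA and mitochondrial genes and with no filter, and 0 without any 1 library. For PARIS WT against PARIS C571A it (1) was 0 with total counts only, 2 with DESeq2 but 1 without its filters, 0 without both libraries under 1% mitochondrial counts (an alternative chosen after seeing the data) and 0 to 1 without 1 library. For PARIS C571A against TRAP control it (0) was 1 with DESeq2, with or without its filters, and among the 3 TRAP groups it (1) was 0 with total counts only. The count of listed glutathione and regulator genes called in PARIS WT against TRAP control (1) was 0 with total counts only, no filter or any 1 library left out, and 2 with DESeq2; that in the other 2 comparisons (0) was 1 with DESeq2, with or without its filters. Over whole brain, the family median in TRAP control (log2 ratio -0.56) was -1.62 with total counts only, where that of all genes was -1.44, and -0.61 to -0.42 without 1 TRAP control library. The cause of these shifts was not tested.

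With the replicate number as a block, the counts called in PARIS WT against TRAP control and against PARIS C571A were 0 (adjusted p of GstE1 0.399 and 0.503), and that of listed genes in PARIS WT against TRAP control was 0. Whether the numbers pair the samples was not settled. Deviations of same-numbered libraries correlated at -0.04 to 0.05 and those of different numbers at -0.04 to 0.03. Of the 9 libraries, 5 correlated best with their own number, and replicate 2 of both PARIS groups had under 1% mitochondrial counts. Scaling by total counts only moved the median of all genes to -0.14 in PARIS WT against PARIS C571A and to 0.11 in PARIS C571A against TRAP control. GstD4, GstD6, GstD7 and GstD11 had at most 26 counts in any TRAP library. They were not tested in the 3-group fit, where a difference was not detectable.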
